A study of Mus musculus with 3 samples.

Results

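The genes described here are 10 genes of the vascular endothelial growth factor (VEGF) family, its receptors and the related platelet-derived growth factors, measured in 4T1 cells, a mouse mammary carcinoma cell line. The ligands were Vegfa, Vegfb, Vegfc, Pgf, Pdgfa and Pdgfb, and the receptors and co-receptors were Flt1, Kdr, Nrp1 and Nrp2. They were taken as every probe set, that is every set of short probes read as 1 transcript measurement, whose platform annotation gave 1 of these genes as its only symbol. This gave 24 of 45037 probe sets and 10 of 18193 named genes. A probe set annotated as Nrp and a pair annotated as Npn2, names that are also synonyms of Nrp1 and Nrp2, carried other gene identifiers and were left out.

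The measurements come from 3 Affymetrix arrays of the Mouse Genome 430 2.0 type, and each condition had a single array. The stated growth medium of 4T1 cells is RPMI-1640 with 10% fetal bovine serum, and the regular-medium array holds cells kept in regular medium. On the conditioned-medium array they had been cultured with medium conditioned by MSCs (probably mesenchymal stem or stromal cells, a name the labels do not spell out). On the co-culture array they had grown together with MSCs, in contact with them, and had been isolated afterwards. The labels give 1 week for these exposures and no time for regular medium. The labels say neither how the cells were isolated nor where the MSCs came from. Contact, isolation and culture time cannot be told apart. Without replicates, a difference is between 2 single arrays and comes with neither an error between cultures nor a test.

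VEGF ligands are secreted proteins that make blood and lymphatic vessels sprout. VEGF-A acts mainly through the receptor tyrosine kinase KDR, VEGF-B and placental growth factor bind FLT1, and VEGF-C is best known for lymphatic growth. Neuropilins are co-receptors that bind VEGF and class 3 semaphorins, and PDGFs recruit pericytes and fibroblasts through their own receptors. Carcinoma cells are known mostly as a source of the ligands, while FLT1 and KDR are typical of endothelial cells.

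Values are MAS5 signals, linear intensities that the MAS5 algorithm summarises per probe set and scales per array. Signals below 42.4, the 40th percentile of all signals, were set to that floor, and a probe set is called bright when it reached 149.3, the 60th percentile. The words higher and lower, used of a gene as a call, stand for a difference of 2-fold or more in which at least 1 signal was bright. The probe set brightest on average stands for a gene, and levels of different probe sets are not compared because each binds with its own strength. Of the 10 genes, 8 were bright on at least 1 array and Pgf and Kdr were not, and 20 of the 24 probe sets were bright.

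In co-culture Nrp2 was higher than in regular medium by the 2-fold rule, and the ligands Vegfc, Vegfa and Pdgfa had signals above it by less than 2-fold. For Vegfa this holds for its main probe set, while the second lay below regular medium, and the median of both gave 0.19 on the log2 scale. In conditioned medium no member differed 2-fold. The promoter windows of Nrp2, Vegfa and Vegfc are shown first, since these 3 genes had the largest co-culture differences among the bright members. Vegfb, which hardly differed, is shown beside them. Each window holds the 250 bases before the RefSeq start in build GRCm38.p6, written 5′ to 3′ on the strand of the gene, and capitals mark the GC box GGGCGG on either strand, the core of the sites that SP1-type factors bind. The Nrp2 window is chr1:62703067-62703316 on the plus strand and the Vegfc window chr8:54077282-54077531 on the plus strand. The Vegfa window is chr17:46032378-46032627 and the Vegfb window chr19:6987652-6987901, both on the minus strand.
Nrp2: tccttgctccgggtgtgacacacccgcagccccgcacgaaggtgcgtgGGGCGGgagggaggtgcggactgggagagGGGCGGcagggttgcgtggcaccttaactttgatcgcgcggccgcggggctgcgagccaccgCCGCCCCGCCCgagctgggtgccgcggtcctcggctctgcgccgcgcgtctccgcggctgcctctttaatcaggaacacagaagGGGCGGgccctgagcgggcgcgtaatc
Vegfa: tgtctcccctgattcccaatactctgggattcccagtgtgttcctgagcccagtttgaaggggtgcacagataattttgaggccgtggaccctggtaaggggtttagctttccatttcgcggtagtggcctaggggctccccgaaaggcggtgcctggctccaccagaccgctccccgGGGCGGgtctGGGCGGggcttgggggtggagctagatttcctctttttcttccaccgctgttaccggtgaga
Vegfc: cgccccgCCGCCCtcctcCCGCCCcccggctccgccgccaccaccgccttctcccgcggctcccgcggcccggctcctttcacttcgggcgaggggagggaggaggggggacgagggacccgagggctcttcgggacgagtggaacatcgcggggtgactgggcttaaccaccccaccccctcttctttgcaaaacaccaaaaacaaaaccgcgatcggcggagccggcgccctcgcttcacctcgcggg
Vegfb: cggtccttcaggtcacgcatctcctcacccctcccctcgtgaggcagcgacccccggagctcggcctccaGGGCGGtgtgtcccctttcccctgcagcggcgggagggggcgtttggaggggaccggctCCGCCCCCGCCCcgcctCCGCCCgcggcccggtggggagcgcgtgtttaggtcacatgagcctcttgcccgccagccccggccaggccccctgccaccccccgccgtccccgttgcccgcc

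RefSeq windows matched 9 of the 10 genes, in 12 windows, with Pdgfb unmatched. A GC box was present in 11 of these 12 windows and in 32.7% of 32851 windows of all genes. The member windows had 59.2% to 76.4% G and C, against a median of 52.4% over all windows. Nrp2 had 5 GC boxes, of which 2 overlap, Vegfb 4, and Vegfa and Vegfc 2 each in the windows printed. The printed windows of Nrp2 and Vegfb, with co-culture differences of 1.13 and -0.03 on the log2 scale, thus both held several. Other motifs were searched on both strands too. The hypoxia response core, ACGTG or GCGTG, was in 8 of the 12 windows and in 38.6% of all windows. The Nrp2 window held it 2 times, beginning 207 and 160 bases before the start, and the Vegfa window printed above held none. An interferon response core, here a pair of GAAA runs separated by 2 bases, lay 142 bases before the printed Vegfa start and in no other member window, against 2.98% of all windows. The ATF4 element TGATGNAA was in 0 of the 12 windows and in 3.45% of all windows, and the cAMP response element core TGACGT in 2 and in 6.47%. The second Vegfa window, which is not printed, is chr17:46025164-46025413 and precedes a start inside the gene, which spans 46016993-46032377. A hypoxia core and a TGACGT match overlap there. The windows of Pgf, Flt1, Kdr, Nrp1 and Pdgfa also lay inside the spans of their genes. The counts above include all of these windows, and whether any of them acts as a promoter was not tested. A match is a run of letters and was not tested for binding.

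**Figure D1:**
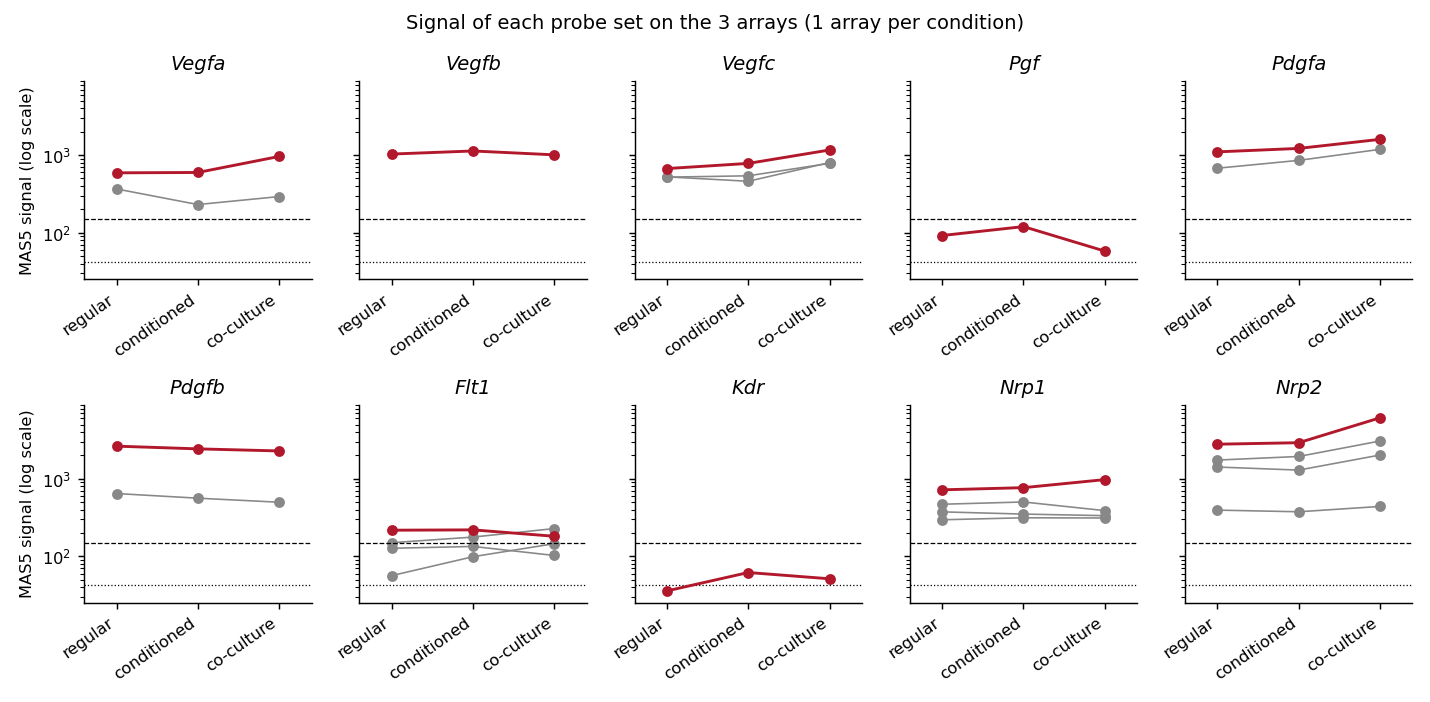
MAS5 signal on a log axis of every probe set of the 10 genes on the regular-medium, conditioned-medium and co-culture arrays, with lines joining the 3 values of 1 probe set and red marking the one that stands for the gene. The dotted line is the floor of 42.4 and the dashed line the bright level of 149.3. All 4 probe sets of Nrp2 and all 3 of Vegfc were highest in co-culture, and Kdr and Pgf stayed below the bright level.

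Among the co-receptors, Nrp2 had the largest difference. Nrp2 is a co-receptor for VEGF-C, VEGF-A and class 3 semaphorins. Its main probe set had a signal of 2789.7 in regular medium, 2915.9 with conditioned medium and 6101.9 in co-culture. The co-culture array stood apart and the other arrays were close to each other. The co-culture signal was 2.19-fold that of regular medium and 2.09-fold that of conditioned medium, and conditioned medium was 1.05-fold regular medium. Of 8 bright members 1 was at least 2-fold higher in co-culture than in regular medium, beside 5.81% of 9393 genes, and 0 were at least 2-fold lower, beside 2.76%. Of those genes 423 had a larger difference upwards than Nrp2.

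The other Nrp2 probe sets lay in the same direction with smaller differences. Probe set 1456778_at had signals of 1742.0, 1937.8 and 3065.5 in the same order of arrays, and was 1.76-fold higher in co-culture than in regular medium. Probe set 1426528_at had 1416.7, 1293.7 and 2022.9, a 1.43-fold difference. Probe set 1447343_at had 394.4, 375.5 and 439.8, a 1.12-fold difference. The size of the Nrp2 difference therefore depended on the probe set, and with the median of the 4 in place of the brightest it was 0.66 on the log2 scale and no longer met the 2-fold rule. A gene with all of at least 3 bright probe sets above regular medium was not rare, at 21.1% of 1874 such genes, and Nrp2 and Vegfc were 2 of the 3 members that could be counted this way.

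Nrp1, the neuropilin that binds VEGF-A and semaphorin 3A, had no common direction. Its main probe set had signals of 720.4 in regular medium, 768.0 with conditioned medium and 975.2 in co-culture, a 1.35-fold difference between the last and the first. Of its 4 probe sets, 2 were above and 2 below regular medium in co-culture, with log2 differences from -0.27 to 0.44, and the median of the 4 signals gave -0.22. In conditioned medium the 4 ranged from -0.10 to 0.10.

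Of the receptor tyrosine kinases, Flt1 was bright by 2 of its 4 probe sets and Kdr was not bright. Flt1 encodes VEGFR1, which binds VEGF-A, VEGF-B and placental growth factor and has a soluble decoy form. Its main probe set had 217.3 in regular medium, 219.5 with conditioned medium and 181.5 in co-culture. Its other bright probe set, 1451756_at, had 150.0, 177.2 and 228.1, so that co-culture was lowest by the first and highest by the second. The remaining probe sets never reached the bright level, and 1 of them, 1440926_at, had 56.5, 99.0 and 145.7 while the other, 1419300_at, had 127.1, 134.2 and 102.7. The direction of Flt1 is therefore unsettled in these data. Kdr encodes VEGFR2, the main signalling receptor for VEGF-A in endothelium. Its only probe set had 35.9 in regular medium, below the floor, 61.9 with conditioned medium and 51.4 in co-culture, and no call was possible.

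Vegfa, the main angiogenic ligand, was measured by 2 bright probe sets that disagreed. The main probe set had 590.2 in regular medium, 596.6 with conditioned medium and 959.5 in co-culture, which was 1.63-fold regular medium and 1.61-fold conditioned medium. The second, 1451959_a_at, had 365.8, 230.3 and 291.7. By this probe set regular medium was highest, co-culture was 1.25-fold below it and conditioned medium 1.59-fold below it. Both put co-culture above conditioned medium, by 0.69 and 0.34 on the log2 scale. Against regular medium their log2 differences were 1.03 apart. For 2603 genes with 2 bright probe sets, the median absolute disagreement in this comparison was 0.35, the upper quartile 0.65 and the 95th percentile 1.28. The suffix _a marks a probe set that matches several transcripts of 1 gene, and which transcripts each one detected was not analysed here.

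Vegfc, the lymphangiogenic ligand that binds NRP2 and VEGFR3, was above both other arrays in co-culture by all 3 of its probe sets. The main one, 1439766_x_at, had 670.1 in regular medium, 780.8 with conditioned medium and 1162.4 in co-culture, which was 1.73-fold regular medium. Probe set 1419417_at had 523.9, 459.6 and 799.9, and 1440739_at had 519.4, 540.3 and 782.5. These were 1.53-fold and 1.51-fold higher in co-culture than in regular medium. All 3 probe sets were thus at least 1.5-fold higher, as in 3.74% of 1874 genes with at least 3 bright probe sets, a count chosen after the values were seen. Their log2 differences lay within 0.20 of each other. The suffix _x marks possible cross-hybridisation, and the other pair of probe sets carries no such mark. Conditioned medium was above regular medium by 2 of the 3 probe sets and below it by the other, with log2 differences from -0.19 to 0.22.

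Vegfb, a ligand of FLT1 linked to metabolic and survival effects, gave 1030.4, 1129.2 and 1007.2 in regular medium, conditioned medium and co-culture. These 3 values were close together, and the co-culture difference of -0.03 became 0.11 when each array was scaled to its median. Pgf, the placental growth factor, had 91.9, 119.7 and 57.9 on its only probe set. Co-culture was the lowest array and conditioned medium the highest, 2.07-fold apart, but no signal was bright and the pair was not called.

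The PDGF ligands lay in opposite directions. Pdgfa, whose product signals mainly through PDGFRA, had 1099.7 in regular medium, 1218.4 with conditioned medium and 1593.5 in co-culture by its main probe set, and 677.3, 854.2 and 1184.7 by the other. Both gave the same order of arrays, with co-culture 1.45-fold and 1.75-fold above regular medium. Pdgfb, whose product signals mainly through PDGFRB on pericytes, had 2632.5, 2428.9 and 2283.3 by its main probe set and 645.0, 562.1 and 498.5 by the other. Both gave the reverse order, with co-culture 1.15-fold and 1.29-fold below regular medium. None of these differences reached 2-fold.

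**Figure D2:**
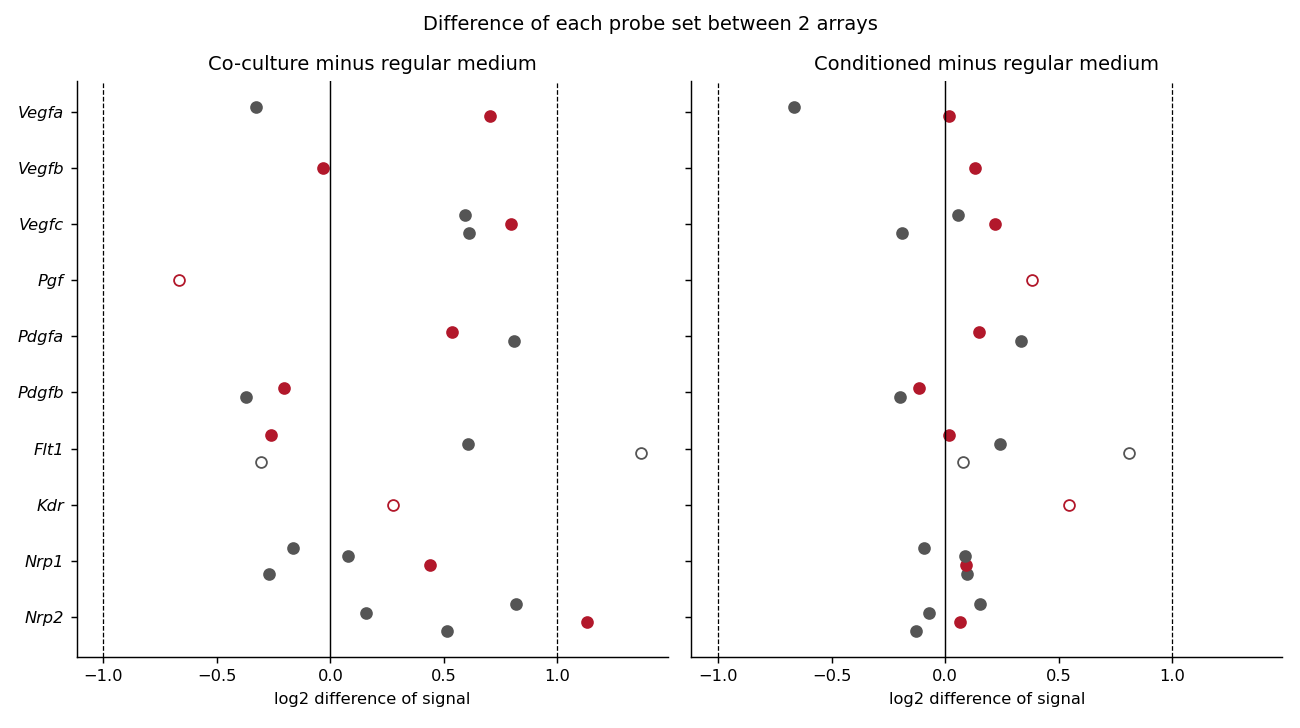
Log2 difference of signal for each probe set, co-culture minus regular medium on the left and conditioned minus regular medium on the right, by gene. Red marks the probe set that stands for the gene, open circles mark pairs with no bright signal and dashed lines mark 2-fold. Probe sets of Vegfc, Pdgfa and Nrp2 lie to the right of 0 in co-culture, those of Vegfa, Flt1 and Nrp1 lie on both sides, and Nrp2 is the only bright one beyond 2-fold.

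Over the 8 bright members the median log2 difference between co-culture and regular medium was 0.49, with a range of -0.26 to 1.13. Over all 9452 genes that were bright on at least 1 array it was 0.07, with quartiles of -0.26 and 0.42. Signals were above regular medium for 5 of the 8, beside 56.0% of all genes, and below it for 3, beside 44.0%. The direction of Vegfb turned with the scaling. With the choice of probe set, Flt1 turned to as much as 0.60 and Nrp1 to -0.22. At least 1.5-fold higher were 3 of the 8, namely Nrp2, Vegfc and, by its main probe set alone, Vegfa, beside 16.9% of all genes, and 0 were at least 1.5-fold lower, beside 9.86%. Of 9393 genes, 937 had a larger difference upwards than Vegfc, 1195 than Vegfa and 1780 than Pdgfa. Taking the median over the probe sets of each gene lowered the member median to 0.21.

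Conditioned medium gave a narrow spread. The median over the 8 members was 0.08, with a range of -0.12 to 0.22, against 0.01 over 9452 genes with quartiles of -0.08 and 0.10. Signals were above regular medium for 7 of the 8, beside 53.7% of all genes, and below it for 1, beside 46.3%. Among the 7, Vegfa was at 0.02 and Flt1 at 0.01. Some bright probe sets of the 7 lay below regular medium, namely 2 of 4 for Nrp2, 1 of 3 for Vegfc, 1 of 4 for Nrp1 and 1 of 2 for Vegfa. None of the 8 was at least 2-fold higher, beside 0.109% of 9152 genes, or lower, beside 0.306%. None was at least 1.5-fold higher, beside 0.754%, or lower, beside 1.46%. The member highest above regular medium was Vegfc at 0.22 and the lowest was Pdgfb at -0.12, which became 0.04 when each array was scaled to its median. The second probe set of Vegfa was 1.59-fold below regular medium and is the largest difference of a bright member probe set in this comparison. For 2570 genes with 2 bright probe sets the median absolute disagreement here was 0.16.

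Co-culture against conditioned medium shares its co-culture array with the first comparison. The median over the members was 0.37, with a range of -0.27 to 1.07, against 0.07 over all genes. Nrp2 was the 1 of 8 that was at least 2-fold higher, beside 5.83% of 9350 genes, and 0 were lower, beside 2.60%. At least 1.5-fold higher were 2 of 8, Nrp2 and Vegfa, beside 16.9%, and 0 were at least 1.5-fold lower, beside 9.95%. Signals were above conditioned medium for 5 of the 8, beside 56.0%, and below it for 3, beside 44.0%. Vegfa had a log2 difference of 0.69, Vegfc 0.57, Pdgfa 0.39, Nrp1 0.34, Pdgfb -0.09, Vegfb -0.16 and Flt1 -0.27. These values are of main probe sets. Of the 4 bright Nrp1 probe sets 3 lay below conditioned medium, with a range of -0.37 to 0.34. Of the 2 bright Flt1 probe sets 1 lay above it, at 0.36.

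**Figure D3:**
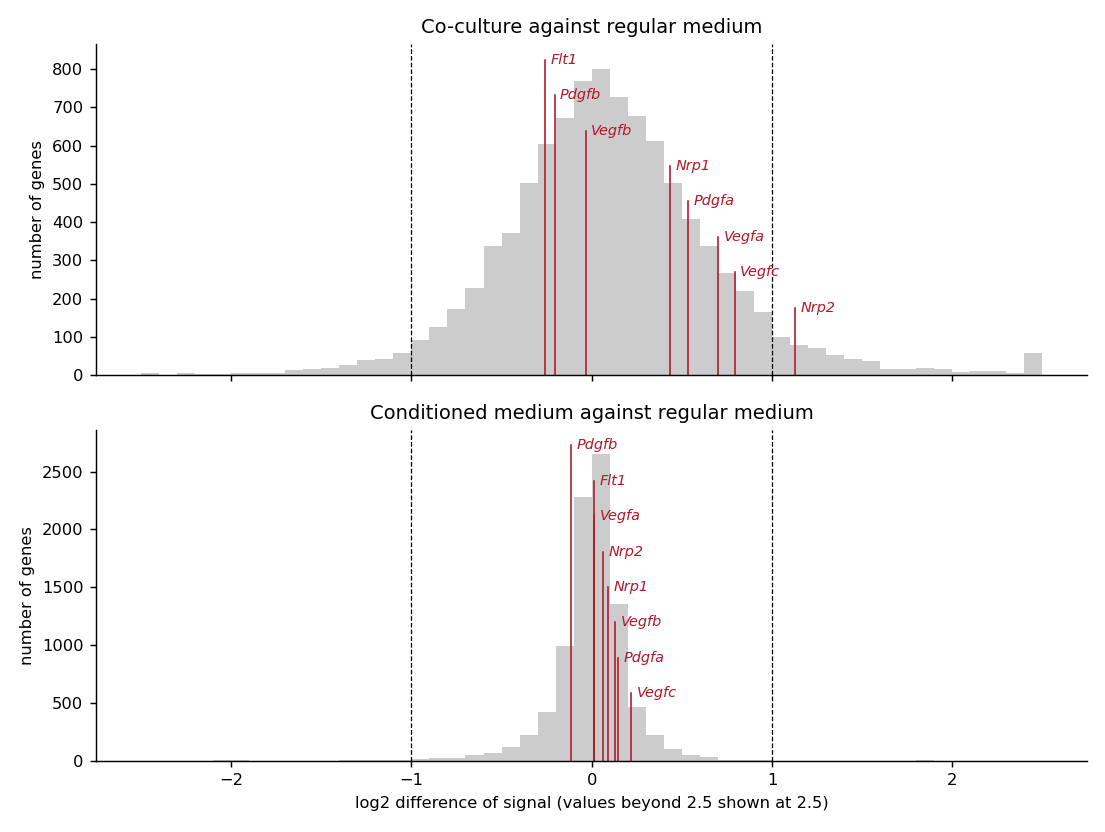
Histograms of the log2 difference of all genes bright on at least 1 of the 2 arrays, for co-culture and for conditioned medium against regular medium, with values beyond 2.5 in either direction placed in the end bars. Red lines mark the 8 bright members (their heights carry no value) and dashed lines 2-fold. In co-culture Nrp2 lies beyond 2-fold at 1.13, and in conditioned medium the members lie between -0.12 and 0.22.

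Other genes of these pathways were read from lists of genes. Their counts of calls in co-culture against regular medium stand beside the 5.81% of 9393 genes that were higher and the 2.76% that were lower, and in lists this short such counts describe the genes named and show nothing particular to a list. Related ligands and receptors outside the 10 genes were mostly at the floor. Vegfd, Flt4, Pdgfd and Pdgfrb were at or below it on all 3 arrays, so the classical VEGF-C receptor gene Flt4 gave 42.3, 39.6 and 35.4. Pdgfc, a PDGF ligand secreted in a latent form, was bright, as was Pdgfra. Pdgfc had 196.6 in regular medium, 172.6 with conditioned medium and 854.3 in co-culture, and was 4.35-fold higher in co-culture than in regular medium. Its other bright probe set had 130.6, 122.1 and 641.3 and lay in the same direction with a log2 difference of 2.30. Over the alternative settings the log2 difference of Pdgfc was 2.11 to 2.26. The PDGF receptor gene Pdgfra had 101.3, 158.9 and 187.5, a log2 difference of 0.89. It was -0.69 with the median of its probe sets, of which the others were never bright. The angiopoietin and TIE genes had 0 of 5 bright.

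Among 4 bright semaphorin and plexin genes, the partners of neuropilins, 0 were called in co-culture against regular medium. Sema3f, whose product is a ligand of NRP2, had 715.4 in regular medium, 1020.7 with conditioned medium and 1023.0 in co-culture, a log2 difference of 0.52 between the last and the first. Its other bright probe sets differed by 0.61 and 0.06. Plxna1 had 0.46, Sema3e 0.25 with other bright probe sets from -0.27 to 0.31, and Plxna3 0.22. With the median of their probe sets Plxna1 had -0.29 and Plxna3 -0.19, but their other probe sets were never bright. The median of the 4 was 0.36, against 0.07 over all genes.

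Other angiogenic factors differed in both directions. Of 6 bright ones, 1 was higher and 0 lower in co-culture, with a median of -0.04 that ran from -0.72 to 0.09 over the alternative settings. Edn1, which encodes the vasoconstrictor peptide endothelin, was 2.18-fold higher, with 225.7 in regular medium, 237.7 with conditioned medium and 491.1 in co-culture. The adrenomedullin gene Adm had a log2 difference of 0.94, while the matricellular gene Ccn1 had -0.81 and the apelin gene Apln -0.75. Of 4 bright angiogenesis inhibitors, 2 were higher and 0 lower, with a median of 0.49. Col18a1, which encodes the precursor of endostatin, was 2.14-fold higher with 870.1, 882.5 and 1864.3, and Cxcl10, an interferon-induced chemokine, was 2.53-fold higher with 259.5, 198.4 and 657.1. The thrombospondin gene Thbs1 had -0.21, with -0.83 by its other bright probe set, and the protease gene Adamts1 had -0.11.

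Of 7 bright genes of HIF control, 1 was higher and 0 lower, with a median of -0.08 that ran from -0.22 to 0.06 over the alternative settings. Arnt, the constant subunit of HIF, was 2.19-fold higher, although its other bright probe sets differed by 0.68 and 0.17 on the log2 scale and the median of its probe sets by 0.17. Vhl had 0.58 by its main probe set and -0.28 by the other bright one, Egln3 had -0.40 and Hif1an 0.26. The median of its probe sets put Hif1an at -0.95, but its other probe sets were never bright. Among 13 bright hypoxia targets the median was -0.27, and the only call was 1 lower gene. Ankrd37 was 3.86-fold lower with 343.1, 302.1 and 88.9, Bnip3 had -0.91, Ndrg1 0.83 and P4ha2 0.68. Vegfa, itself a classical hypoxia target, had 0.70 on its main probe set and -0.33 on the other. Of 11 bright regulators of Vegfa transcription or transcript stability, 0 were called and the median was 0.17, with Egr1 at 0.48, Zfp36l2 at 0.32, Sp3 at 0.31 and Sp1 at 0.28. Zfp36l2 and Sp1 each had another bright probe set on the opposite side, at -1.29 and -0.91. Of 5 bright genes for proteases that process VEGF-C and PDGFs, or for a cofactor of such proteases, 0 were called and the median was 0.19. Furin, a proprotein convertase, had 0.52, Plau -0.52, Pcsk6 0.20 and Pcsk7 0.19.

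**Figure D4:**
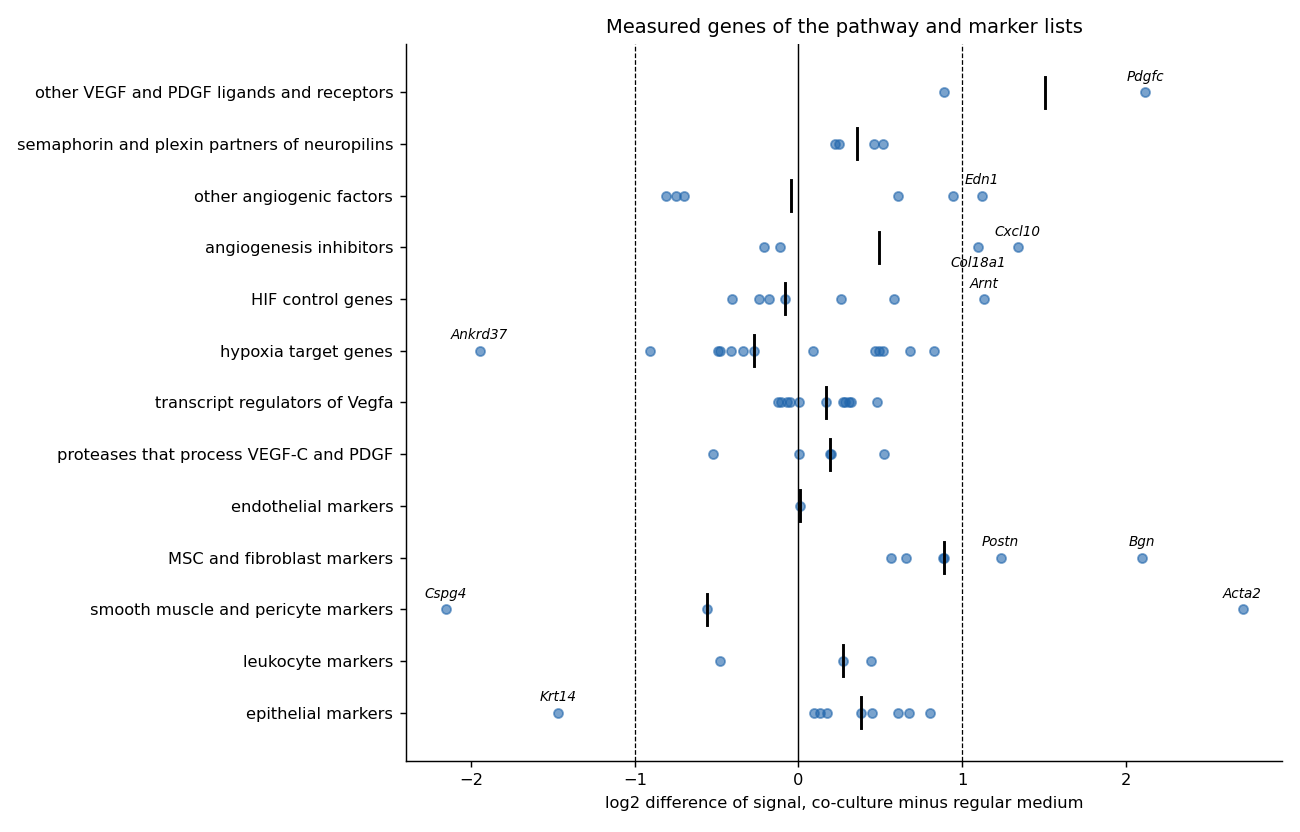
Log2 difference between co-culture and regular medium for the bright genes of each pathway and marker list, with 1 point per gene, a black bar at the median of the list and dashed lines at 2-fold. Genes beyond 2-fold are named. Pdgfc at 2.12 lies far to the right in its list, where the receptor gene Pdgfra is the only other point. Ankrd37 at -1.95 lies far to the left among hypoxia targets.

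Markers of other cell types were read on the same arrays. Endothelial cells, which carry KDR and FLT1, were represented by 10 markers, of which 1 was bright, Egfl7, with 233.7 in regular medium, 198.9 with conditioned medium and 235.2 in co-culture. Pecam1, Tie1, Tek, Vwf and Erg were at or below the floor on all 3 arrays, and the summed signal of the 10 was 536.7, 394.2 and 420.6 in the same order. Of 13 MSC and fibroblast markers 6 were bright. In co-culture 2 of these were higher than in regular medium and 0 lower, and their median log2 difference was 0.89, with 0.05 to 1.03 over the alternative settings. The summed signal of the 13 was 4215.3, 4563.8 and 7258.7. Of it, Nt5e gave 2156.7, 2185.5 and 3185.9, Eng 937.8, 957.2 and 1476.5, and Postn 765.6, 949.5 and 1802.6. These genes were bright in regular medium already, so the sum was not particular to MSCs. Col1a1, Dcn, Pdgfrb, Thy1 and Mgp were at or below the floor on all 3 arrays. Postn was 2.35-fold higher in co-culture, Bgn was at least 4.28-fold higher with 181.5, and Col1a2 and Pdgfra had 0.89. With the median of the probe sets Bgn had 0.42 and was no longer called, Col1a2 had 0.41 and Pdgfra -0.69. The other probe sets of Bgn, Col1a2 and Pdgfra were never bright. By their main probe sets Postn, Bgn, Col1a2 and Pdgfra lay in the same direction as Nrp2, Vegfc, Pdgfa and Pdgfc. So did 8 of the 9 epithelial markers and 56.0% of all genes. The part of MSC RNA in those differences was not tested. In bulk RNA, more cells of a type and more RNA per cell cannot be told apart.

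Of 6 smooth muscle and pericyte markers 3 were bright. In co-culture Acta2 was at least 6.56-fold higher, while Mcam had -0.56 and Cspg4 was at least 4.46-fold lower. The Acta2 and Cspg4 differences each rest on 1 probe set. Their other probe sets were at or below the floor on all 3 arrays, so the median of the probe sets gave 0 for both. The Acta2 difference was also 0 without the _s_at and _x_at probe sets. Both genes were called in conditioned medium too, Acta2 at least 3.70-fold above regular medium and Cspg4 at least 4.46-fold below it. In that comparison 0.109% of 9152 genes were higher and 0.306% lower. With the median of the probe sets these 2 differences were 0 as well, for the same reason. The summed signal was 532.2 in regular medium, 444.4 with conditioned medium and 612.2 in co-culture, and Rgs5 and Myh11 were at or below the floor on all 3 arrays. Of 6 leukocyte markers 3 were bright and 0 called, with Csf1r at -0.48, Cd68 at 0.44 and Cd14 at 0.27. Csf1r had 0.43 with the median of its probe sets, of which the others were never bright. Ptprc and Itgam were at or below the floor on all 3 arrays. All 9 epithelial markers, which are usual in carcinoma cells, were bright on at least 1 array. Their median difference in co-culture was 0.38, with the basal keratin gene Krt14 2.77-fold lower, Cldn4 at 0.81, Cdh1 at 0.68 and Krt7 at 0.61.

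The genes whose pattern lay nearest to that of Vegfa over the 3 arrays were sought by the distance between their log2 differences against regular medium. The search used the main probe set of each gene, and so for Vegfa the one that lay above regular medium. The nearest 5 were Arntl2, Atp6ap2, B4galt2, Golga4 and Timm22, with co-culture differences of 0.70, 0.69, 0.69, 0.72 and 0.72 and conditioned-medium differences of 0.01 each. With the median of their probe sets the co-culture difference was -0.19 for Arntl2, 0.15 for B4galt2 and 1.22 for Golga4. Of 9162 genes compared, 231 lay within 0.1 of Vegfa, so with 3 arrays such likeness is common.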

How the data were processed

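Biotin-labelled RNA of 4T1 cells was read on 3 arrays, 1 for each condition, grouped by the labels. The authors deposited linear intensity values, and the submitters' processing notes name MAS5 as the tool. Neither its version nor its target level is named there, and no further scaling was applied. The number of arrays limits the precision.

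Of 45037 probe sets, 34945 had 1 symbol, 932 several and 9160 none in the platform annotation. The gene identifier of 34741 was found in RefSeq, and these took the RefSeq symbol, whether or not it differed. Signals were floored at the pooled 40th percentile before log2 was taken, and no test was run. Genes named are the 10 members, up to 4 bright genes of each of 9 pathway and 5 marker lists with the largest co-culture difference, and the 5 nearest to Vegfa. Genes mentioned only as at the floor, and Nt5e and Eng, fall outside this rule. Members and lists were chosen with earlier results of these data known. Alternatives covered probe set choice, scaling, floor, filter and fold. The calling procedure was tested on simulated arrays with a chosen noise, and known differences were put only into genes well above the bright level. It was not tested near the floor or for differences close to 2-fold. Sequences are from RefSeq, build GRCm38.p6. Python 3.11.15, NumPy 2.4.6, pandas 2.3.3 and Matplotlib 3.10.9 were used.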

Additional observations from a re-analysis of the deposited data

How the results depend on the processing

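No paired analysis was possible because each group had 1 array and the labels carry no replicate numbers. With the median over a gene's probe sets, 0 members were at least 2-fold higher in co-culture against regular medium and 0 against conditioned medium, and the member medians were 0.21 and 0.25. With a 1.5-fold rule the counts of higher members were 3 and 2, and with a 3-fold rule 0 and 0. Without the filter on low signal all 10 genes entered, the medians were 0.36 and 0.13, and 1 member, Pgf, was at least 2-fold lower in co-culture than in conditioned medium. Scaling each array to its median gave member medians of 0.62 for co-culture and 0.23 for conditioned medium against regular medium. That scaling also moved the medians of all genes to 0.21 and 0.17, and the member medians lay 0.41 and 0.07 above them, as they did without it. The share of 2-fold calls over all genes that were higher went from 67.8% to 82.7% in co-culture, and in conditioned medium from 26.3% to 58.1% (37.5% with quantile normalization). The other settings tried, namely the highest single signal, leaving out _s_at and _x_at probe sets, quantile normalization, floors at the 20th and 60th percentiles and a filter at the 80th, moved no member median by over 0.1 and no count of members by over 1.5 times. Signal near the floor limits Kdr, Pgf and 2 probe sets of Flt1.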
